A study of Homo sapiens with 3 samples.

Results

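SNAP23 and 9 other genes of the plasma membrane fusion machinery were followed in Caco-2 cells depleted of the transcript OCC-1 (gene symbol C12orf75). The members were SNAP23 and SNAP29, the syntaxins STX2, STX3 and STX4, the vesicle proteins VAMP3, VAMP7 and VAMP8, and the syntaxin-binding proteins STXBP2 and STXBP3. These 10 of the 18132 genes on the array were read by 21 of its 49395 probe sets, taken as every probe set whose only gene symbol in the platform annotation was that of a member. SNAP23 was chosen by its measured difference from control on these same arrays, and the other 9 genes were added for their function with results of these data known. The values of SNAP23 and of the other members are therefore a description, and no p-value is given for any of them.

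Caco-2 is an established human colorectal cancer line that can form a polarised, enterocyte-like layer. The 3 arrays held total RNA of a culture expressing a non-target hairpin, shCTRL (the control), of one expressing shOCC-1-1 (line 1) and of one expressing shOCC-1-2 (line 2), so that a single array stood for each hairpin. All 3 cultures had received lentivirus, had been kept in puromycin at 1 µg/ml for 5 days and then without the drug for 24 hours, in medium with 20% serum. Whether a line was a pool or a clone was not stated in the sources used here. In such bulk RNA, fewer cells that express a gene and less RNA per cell cannot be told apart.

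SNARE proteins drive the fusion of vesicles with their target membrane. A vesicle SNARE (a VAMP) pairs with target SNAREs, a syntaxin together with a SNAP-25-type protein that supplies a pair of helices, and the resulting bundle pulls the membranes together. SM proteins such as STXBP2 (Munc18-2) and STXBP3 (Munc18c) bind syntaxins and guide this assembly. In enterocytes STX3 acts at the apical membrane and STX4 at the basolateral membrane, and SNAP23 is the widely expressed partner of both.

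The targeted transcript, OCC-1, was at an intensity of 1219 with the control hairpin and fell to 518 (line 1) and 397 (line 2). The median intensity over all probe sets lay between 182.5 and 185.5 on the 3 arrays. Of 10 epithelial markers 9 were matched and all 9 were above the filter on level described next, with VIL1 (villin) at 2447, 2926 and 2857 in the control, line 1 and line 2. The leukocyte marker PTPRC stayed between 75.5 and 80.1, but LCP1 of the same list gave 1909, 1592 and 1722 in the control, line 1 and line 2. The neuronal markers SYP, STMN2 and GAP43 gave 454, 373 and 478 in the control. Of the leukocyte, fibroblast, endothelial and neuronal lists 3 of 7, 3 of 6, 1 of 4 and 3 of 4 genes on the array passed the filter, with 0 at least 1.5-fold from control in both lines. In limma, after Benjamini-Hochberg adjustment, 0 genes of these 4 lists passed, and 1, in the leukocyte list, had an unadjusted p under 0.05.

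Probe sets with a mean log2 intensity of at least 7.52 (the median of all probe sets) were compared, and 18 of the 21 member probe sets passed. Of these, 3 were at least 1.5-fold higher than control in both lines, against 1.41% of all 22670 named probe sets, and 0 were that much lower, against 0.11%. SNAP23 had been chosen for this difference, so nothing is read from the count. The 3 probe sets were a pair of SNAP23 and the only one of STXBP3. The 18 had median log2 differences of -0.04 (line 1) and -0.07 (line 2), where all named probe sets had -0.01 and -0.02. The lines share one control array, and so their differences share its error.

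Per gene, with the brightest probe set of each, 2 of the 10 members (SNAP23 and STXBP3) were at least 1.5-fold higher in both lines, against 1.36% of 11329 genes, and 0 were lower, against 0.159%. SNAP29 was higher in both lines by less than 1.5-fold. STX2, STX3, VAMP3, VAMP7 and VAMP8 were lower in both by less than 1.5-fold, and STX4 and STXBP2 lay on opposite sides of the control in the 2 lines.

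**Figure D1:**
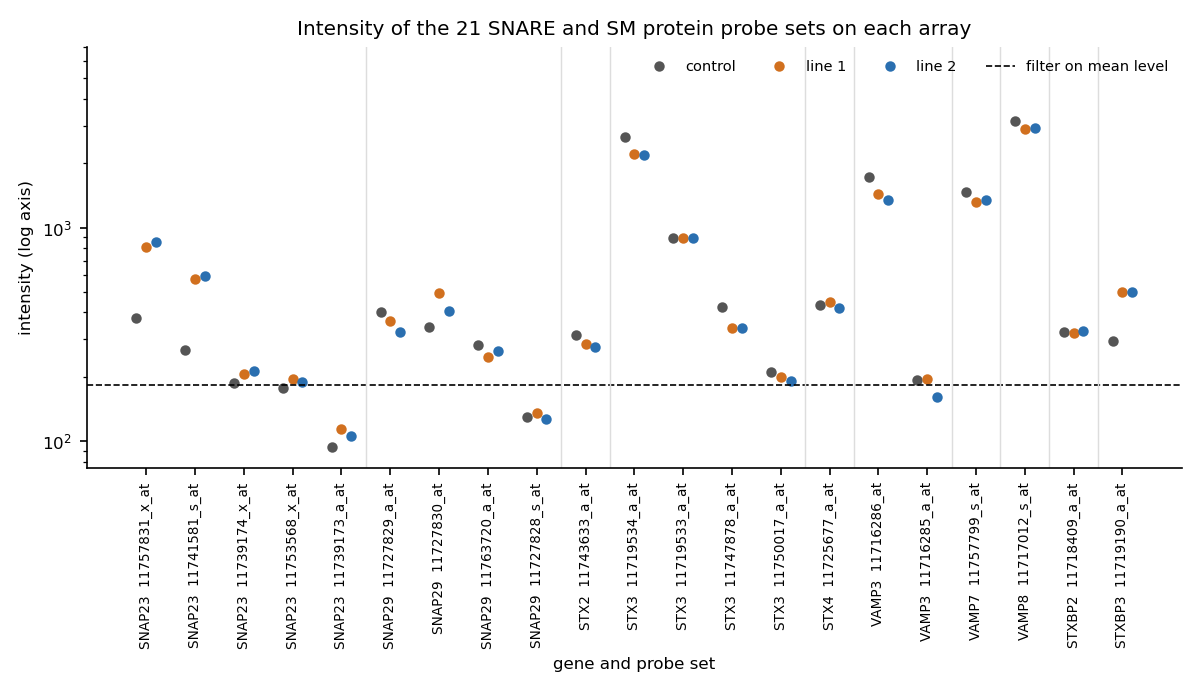
Intensity (log axis) of each member probe set in the control, line 1 and line 2, 1 point per array, with the level filter as a dashed line. The first 2 SNAP23 probe sets and the STXBP3 probe set lie well above control in both lines, while the other 3 SNAP23 probe sets lie close to it, between 106% and 121% of control.

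The start-site regions of SNAP23 and STXBP3 are shown first, since these were the 2 members beyond 1.5-fold in both lines. Sequences are from RefSeq, build GRCh38.p14, 250 bases before to 50 bases after the annotated start, 5′ to 3′ on the gene's strand, and all 10 member genes were found in that table. SNAP23 is at chr15:42495384-42495683 and STXBP3 at chr1:108746424-108746723, both on the + strand. Capitals mark exact matches, on either strand, to 6 motifs, the TATA box TATAAA, the CCAAT box CCAAT, the GC box GGGCGG, the cyclic AMP response element TGACGTCA, the E-box CACGTG and the ETS motif CCGGAAG.
SNAP23: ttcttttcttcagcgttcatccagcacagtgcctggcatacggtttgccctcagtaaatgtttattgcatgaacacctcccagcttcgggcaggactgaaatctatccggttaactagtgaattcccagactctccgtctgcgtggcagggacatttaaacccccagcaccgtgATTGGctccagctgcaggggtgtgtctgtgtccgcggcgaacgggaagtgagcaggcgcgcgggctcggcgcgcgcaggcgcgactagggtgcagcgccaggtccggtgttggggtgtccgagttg
STXBP3: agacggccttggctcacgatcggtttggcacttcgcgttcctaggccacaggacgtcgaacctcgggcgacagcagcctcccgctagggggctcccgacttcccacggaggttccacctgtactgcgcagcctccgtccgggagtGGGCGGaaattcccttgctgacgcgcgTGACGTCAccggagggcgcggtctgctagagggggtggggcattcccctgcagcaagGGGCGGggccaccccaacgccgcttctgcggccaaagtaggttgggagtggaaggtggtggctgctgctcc
The SNAP23 window held 1 CCAAT box, read on the opposite strand as ATTGG, and 0 of the other motifs. The STXBP3 window held 2 GC boxes and 1 TGACGTCA, with no overlap between them. Of 34796 windows of the same length, 34.6% held a CCAAT box, 44.9% a GC box and 1.84% TGACGTCA. The 2 windows thus had no searched motif in common. A match here is a description of the letters only.

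SNAP23, the SNAP-25-type target SNARE of non-neuronal cells, was read by 5 probe sets that fell into a high and a low set. Probe set 11757831_x_at gave 375 in the control, 811 in line 1 (2.16-fold higher) and 858 in line 2 (2.29-fold higher). Probe set 11741581_s_at, designed on a RefSeq transcript of SNAP23, gave 266, 575 and 592 (2.16-fold and 2.22-fold). Both lines lay far above the control in both probe sets, and lines 1 and 2 lay close to each other, with log2 differences of 1.15 ± 0.06 and 1.13 ± 0.03 (SD, n = 2 lines). Among the 22670 named probe sets above the filter, these differences ranked 7 and 8 from the highest in line 1 and 3 and 5 in line 2.

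The other 3 SNAP23 probe sets were higher in both lines by far less. Probe set 11739174_x_at gave 187 (control), 206 (line 1) and 213 (line 2), a log2 difference of 0.16 ± 0.03 (SD, n = 2 lines). Probe set 11753568_x_at gave 178, 194 and 188 (0.11 ± 0.03). Probe set 11739173_a_at gave 93.7, 113 and 105 (0.22 ± 0.08) and was below the filter. In all 5 probe sets the control was thus the lowest array, but the size of the difference depended on the probe set.

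Which stretch of the transcript each probe set reads was not stated in the sources used here, so these values do not tell whether different SNAP23 transcripts moved differently. With the 5th percentile of each array (77.7 to 78.8) subtracted, an alternative chosen after seeing the data, the high pair stood at 2.47-fold to 2.74-fold and 11739174_x_at and 11753568_x_at at 1.11-fold to 1.25-fold. The dimmest, 11739173_a_at, then stood at 2.40-fold and 1.82-fold, from a remaining control intensity of only 14.9. With the mean of all 5 probe sets SNAP23 was at 0.55 in line 1 and 0.56 in line 2 on the log2 scale and no longer reached 1.5-fold.

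The distance between the highest and the lowest probe set above the filter was 1.05 for SNAP23, as the mean log2 difference of the 2 lines. Of 5840 genes with at least 2 such probe sets it ranked 11 from the widest, and 3 among the 738 genes with 4, whose median was 0.27. SNAP23 was chosen for its large difference from control, which enters this distance, so nothing is read from its rank. SNAP29 had a distance of 0.62 and ranked 331, and STX3 one of 0.32 and ranked 1547, against a median of 0.18 over all these genes.

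**Figure D2:**
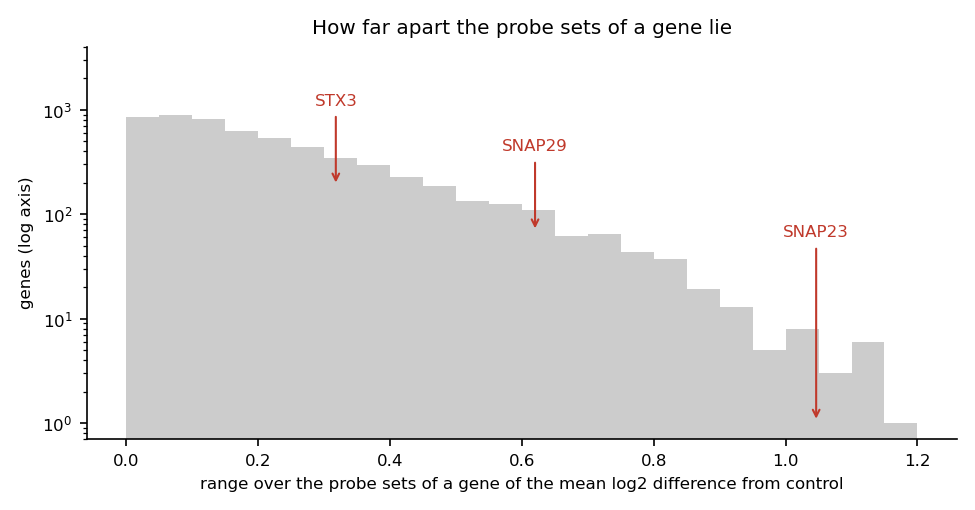
Number of genes (log axis) by the distance between the highest and lowest probe set of a gene, in mean log2 difference from control, for 5840 genes with 2 or more probe sets above the filter. SNAP23, chosen for its large difference from control, lies at 1.05 in the far right tail, SNAP29 at 0.62 near its start and STX3 at 0.32 nearer the bulk.

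Probe set names of this kind carry endings. On such arrays s_at commonly marks probes shared by several transcripts, x_at some probes that may match other sequences, and a_at probes for several transcripts of one gene, but this reading is general background and was not stated in the sources used here. The 2 high SNAP23 probe sets end in s_at and x_at, and the low ones in x_at and a_at. Of all named probe sets above the filter, 3.43% of those ending in s_at were at least 1.5-fold higher in both lines, against 1.12% for x_at, 0.98% for a_at and 0.97% for plain names. The share also ran with level. Over 4 bins of like size it was 0.21% in the dimmest, then 0.94%, 1.94% and 2.54% in the brightest. Both high SNAP23 probe sets fell by their mean in the bin at 1.94%. The low 11739174_x_at and 11753568_x_at fell in the dimmest bin, at 0.21%, and 11739173_a_at was below the filter. Whether other sequences add signal to the s_at and x_at probe sets was not tested.

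The arrays also differed along the base composition of probes. The 23 background control probe sets, made with 3 to 25 G or C bases per probe, ran from 0.06 to -0.37 on the log2 scale in line 1 and from 0.04 to -0.23 in line 2. All 5 SNAP23 probe sets were higher than control, the low 3 by between 0.08 and 0.28. The background controls do not give the shift of any member probe set. Base composition of the member probes was not given here, and its part in the result was not tested.

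STXBP3, the SM protein that binds STX4, was the other member at least 1.5-fold higher. Its single probe set gave 293 (control), 497 (line 1) and 501 (line 2), 1.70-fold and 1.71-fold higher. The lines lay close to each other and well above the control, with a log2 difference of 0.77 ± 0.01 (SD, n = 2 lines). It ranked 127 from the highest in line 1 and 101 in line 2 of the 22670. No other STXBP3 probe set was there to set beside it. STXBP2, the SM protein of STX3 in epithelia, gave 323, 319.8 and 328, with the 2 lines on either side of the control.

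STX4, the basolateral syntaxin with which STXBP3 and SNAP23 pair, gave 433 (control), 447 (line 1) and 419 (line 2). Its difference was 0.00 ± 0.07 (SD, n = 2 lines), so it did not differ beyond the spread of the lines. STX2, a syntaxin found at the plasma membrane of many epithelia, gave 315, 285 and 275, lower in both lines at 90.6% and 87.4% of control.

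STX3, the apical syntaxin, was read by 4 probe sets, none of which was 1.5-fold from control. The brightest gave 2649 (control), 2202 (line 1) and 2195 (line 2), 83.1% and 82.9% of control. Another, 11747878_a_at, gave 422, 338 and 339.7 (80.0% and 80.4%). The lines lay close together and below the control in both. Probe set 11719533_a_at gave 895, 894 and 895 and did not differ, and 11750017_a_at gave 210.3, 199.7 and 192 (log2 differences of -0.07 and -0.13). The STX3 probe sets thus lay between 80% and 100% of control.

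VAMP3 (cellubrevin), a vesicle SNARE of recycling endosomes, gave 1719.7 (control), 1438 (line 1) and 1338 (line 2) with its brighter probe set, 83.6% and 77.8% of control. Its dimmer probe set, below the filter, gave 194, 196 and 161, so that only line 2 was lower there. VAMP7, a vesicle SNARE of late endosomes and of apical delivery, gave 1466, 1315 and 1351 (89.7% and 92.1%). VAMP8 (endobrevin), which serves regulated secretion and endosome fusion, gave 3136, 2895 and 2930.2 (92.3% and 93.4%). The 3 VAMPs were below the control in both lines by these probe sets, none by 1.5-fold.

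SNAP29, the SNAP-25-type protein that acts mostly on internal membranes and in autophagosome fusion, went both ways. Its brightest probe set by mean level, 11727830_at, gave 344 (control), 494 (line 1) and 409 (line 2), 143.5% and 118.8% of control. Probe set 11727829_a_at gave 403, 364 and 322, 90.3% and 80.0% of control. Probe set 11763720_a_at gave 281, 248 and 263 (88.2% and 93.5%), and 11727828_s_at, below the filter, 129.6, 136 and 127. The probe sets disagreed in sign, and the mean of all 4 lay at 0.07 in line 1 and -0.05 in line 2 on the log2 scale. Line 1 and line 2 also differed by 0.27 in the brightest, the widest gap among the members above the filter, where the SD of that gap over all named probe sets was 0.11.

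**Figure D3:**
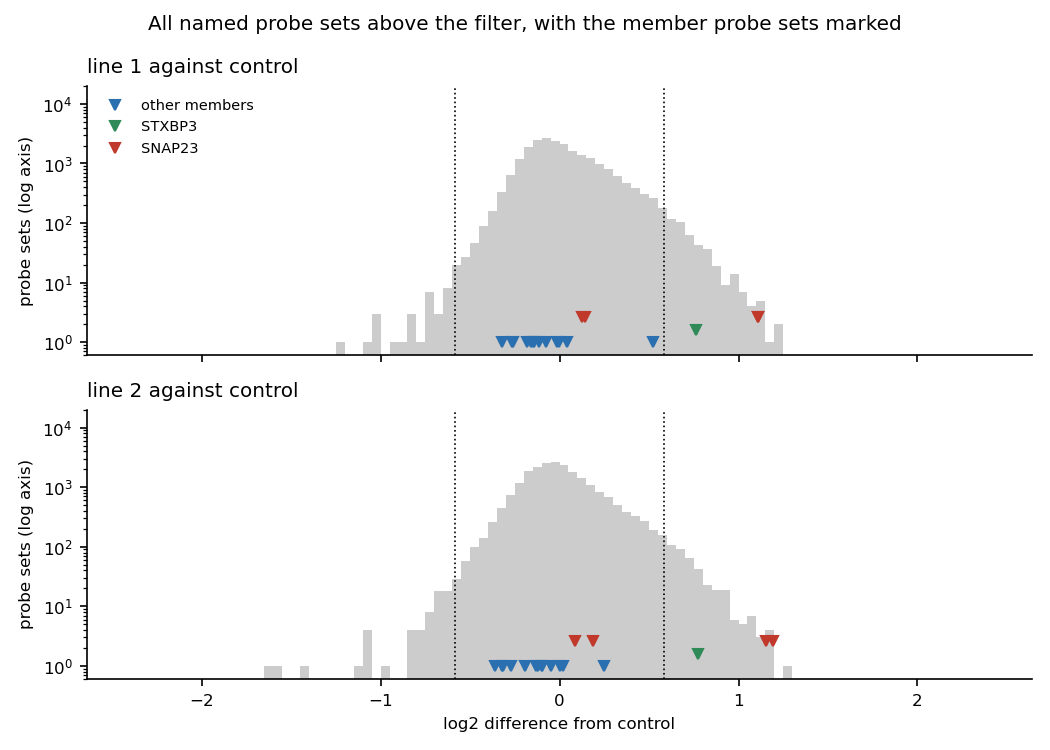
Number of named probe sets above the filter (log axis) by log2 difference from control in line 1 (top) and line 2 (bottom), with member probe sets as triangles and 1.5-fold as dotted lines. A pair of SNAP23 probe sets stands in the upper tail and STXBP3 just above 1.5-fold in both lines, while the other members lie within 1.5-fold.

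The genes nearest to SNAP23 were sought by the distance between their pair of log2 differences and that of the brightest SNAP23 probe set, over the 3 arrays. The nearest 6 were PTPRF (distance 0.06), ABHD3 (0.08), RSL24D1 (0.10), TMED5 (0.10), SLC19A2 (0.14) and HHEX (0.15). Their differences lay between 1.08 (RSL24D1) and 1.22 (TMED5), and all share the same control array with SNAP23. Only 8 genes, SNAP23 included, were at least 2-fold higher in both lines, and all 6 were among them. Nearness here therefore says little beyond the size of the rise. As with SNAP23, most of these values depended on the probe set. Averaged over each gene's probe sets, PTPRF was at 0.37, TMED5 at 0.46, RSL24D1 at 0.77, SLC19A2 at 0.78 and ABHD3 at 0.85, and HHEX stayed at 1.14.

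Related transport genes were taken from 5 lists of SNAREs, their regulators, the exocyst and apical transport, 91 genes in all, of which 76 passed the filter. By size 2 of them were higher and 0 lower in both lines, against 1.36% and 0.159% of all 11329 genes. In limma, after Benjamini-Hochberg adjustment over all 11329 genes, 8 rose and 1 fell, where 9.63% of all genes rose and 3.06% fell. The same shares stand beside the counts of each list below, and nothing is read from those counts. The medians over the 76 lay close to those of all genes, at -0.03 in line 1 and -0.03 in line 2, against -0.03 and -0.02 over all. The medians of the single lists ran from -0.07 to 0.04 in line 1 and from -0.05 to -0.01 in line 2. limma set 2 lines against 1 control and assumes that the lone control varies like the lines.

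None of the 6 measured genes among other plasma membrane and secretory SNAREs passed limma, and 0 had an unadjusted p under 0.05. VAMP5 gave 302 (control), 276 (line 1) and 271 (line 2), and SNAP25, the neuronal relative of SNAP23, gave 236, 219.6 and 226. Among 20 endosomal, Golgi and ER SNAREs, STX16 and BET1 rose and 0 fell. STX16, a syntaxin of the trans-Golgi network, gave 1044, 1650.4 and 1639, higher by 0.66 ± 0.07 on the log2 scale (SE, limma adjusted p = 0.0053). Its other 4 probe sets above the filter lay between 0.14 and 0.59. BET1, an ER-to-Golgi SNARE, was higher by 0.50 ± 0.08 (SE, limma adjusted p = 0.012), and its other 3 probe sets above the filter lay between 0.13 and 0.20. When all probe sets of each gene were averaged, also those below the filter, 1 gene of the list rose and 1 fell. STX16 was then at 0.28 and BET1 at 0.17.

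Of 22 measured genes for SNARE disassembly and regulation, SCFD1, the SM protein of ER-to-Golgi traffic, was the only one to pass, higher by 0.45 ± 0.08 (SE, limma adjusted p = 0.018). The other probe set of SCFD1 lay at 0.14, and with the mean of both SCFD1 was at 0.30 and 0 genes of the list rose. SYTL2, a RAB27 effector, lay at 0.23 ± 0.08 and did not pass (SE, limma adjusted p = 0.11), and its other probe set lay on the other side of the control, at -0.15. Of the 9 exocyst subunits, which tether vesicles to the plasma membrane, EXOC8 (0.51 ± 0.08 SE, limma adjusted p = 0.013) and EXOC5 (0.39 ± 0.09 SE, limma adjusted p = 0.033) rose and 0 fell. The other probe set of EXOC8 lay at 0.15, and the others of EXOC5 above the filter lay between -0.04 and 0.22. When all probe sets of each gene were averaged, also those below the filter, 1 exocyst subunit rose and EXOC5 was at 0.12.

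In the list of apical and recycling transport 3 of 19 genes rose and 1 fell. PARD6B, a polarity protein, gave 916 (control), 1673 (line 1) and 1851 (line 2), higher by 0.94 ± 0.09 (SE, limma adjusted p = 0.0045), with its other probe set at 0.13 and the mean of both at 0.54. RAB11B, a recycling endosome GTPase, rose by 0.53 ± 0.07 (SE, limma adjusted p = 0.0085). Its other 2 probe sets above the filter were lower than control, at -0.22 and -0.06. The mean of all RAB11B probe sets, also those below the filter, was at -0.03. S100A10, the annexin A2 partner, rose by 0.30 ± 0.07 (SE, limma adjusted p = 0.045), with its other probe set also at 0.30. The S100A10 difference shrank to 0.13 after quantile normalization and to 0.19 after cyclic loess. ANXA13, an annexin of intestinal epithelium, fell by 0.59 on the log2 scale (limma adjusted p = 0.0081), and its other probe set lay at -0.62. BET1, RAB11B, S100A10 and ANXA13 were named after their values were seen.

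**Figure D4:**
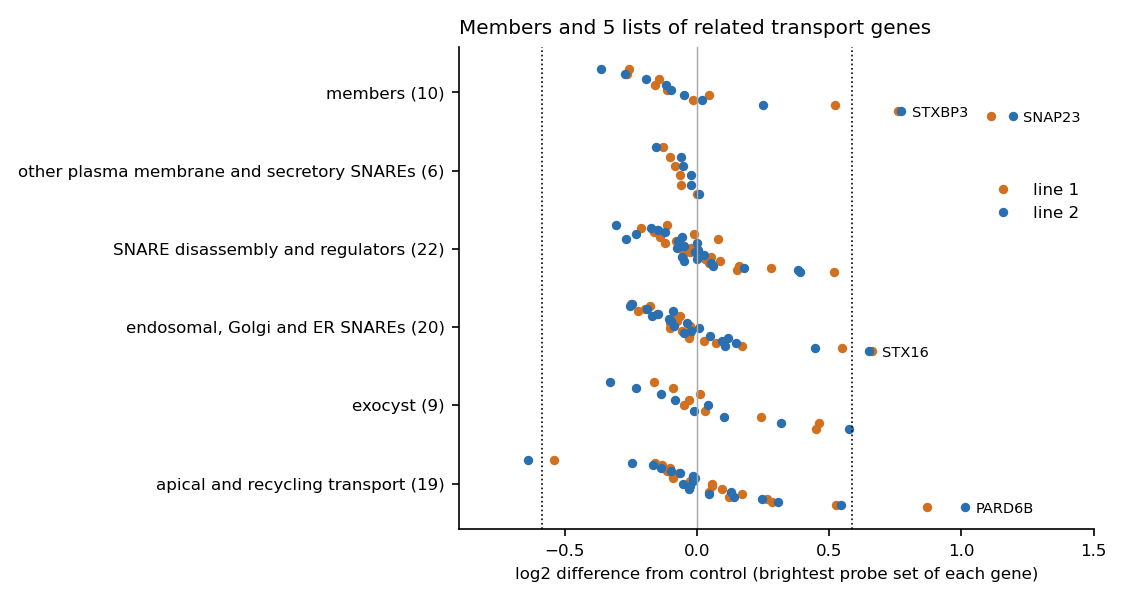
Log2 difference from control of the brightest probe set of each gene in line 1 and line 2, for the 10 members and the 5 lists (number of genes above the filter in brackets), with 1.5-fold as dotted lines. SNAP23, STXBP3, STX16 and PARD6B are beyond 1.5-fold in both lines, and most other points lie near 0.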

How the data were processed

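Total RNA of 3 Caco-2 cultures, 1 control and 2 OCC-1 knockdown lines grouped by their genotype label, was measured on oligonucleotide arrays with biotin-labelled cRNA. What the authors deposited is a linear intensity for every probe set on each array. RMA is the tool listed, per the submitters' processing notes, with background and scaling settings not given in the sources used here. Values were not normalized again, and log2 was taken here.

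Of the probe sets 44988 had 1 gene symbol, 1832 several and 2473 none, and 102 were array controls. By gene identifier 0 symbols changed against RefSeq (GRCh38.p14). Genes were read by the probe set with the highest mean. The size rule asked each line to differ from control by 1.5-fold or more in one direction. Two-sided tests at 0.05 by lmFit with eBayes of limma 3.58.1, under R 4.3.3, compared the 2 lines with the control over 11329 genes, leaving 1 residual degree of freedom (6.96 after eBayes). Since the lines carry different hairpins and 1 culture each, the p-values reflect nothing beyond the spread of these arrays, whose number limits precision. Both procedures were tested on simulated data. There the control was given the same noise as the lines. The simulation thus cannot check the assumption of limma that the lone control varies like the lines. Python 3.11.15, numpy 2.4.6, pandas 2.3.3 and matplotlib 3.10.9 were used otherwise.

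Members and lists were chosen with earlier results of these data known. Named were all members, OCC-1, the 6 genes nearest to SNAP23, and per list the genes called by size (at most 4) or, where none was, the 2 genes of one sign in both lines that ranked highest by whichever line differed less.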

Additional observations from a re-analysis of the deposited data

How the results depend on the processing

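The count of member probe sets at least 1.5-fold higher in both lines was 3 with no filter, an upper quartile filter, quantile normalization, cyclic loess, a 1.3-fold threshold, the 5th percentile subtracted (chosen after seeing the data) and each line alone. It was 2 at 2-fold, and the count of lower ones was 0 in all of these. The SNAP23 log2 difference of 1.15 became 0.56 with the mean of all its probe sets and 1.35 with the 5th percentile subtracted, and ranged from 1.11 to 1.19 with 1 line left out. STXBP3 ranged from 0.76 to 0.97 over 8 alternatives. The median over the members, -0.05, was -0.11 with the upper quartile filter and -0.10 with quantile normalization, and with 1 line left out it ranged from -0.074 to -0.065.

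Over all genes, 154 higher and 18 lower became 44 and 9 with the mean of all probe sets, 602 and 106 at 1.3-fold, 8 and 4 at 2-fold, and 283 and 36 with the 5th percentile subtracted. The upper quartile filter left 11 lower genes, and leaving out a line gave 212 to 219 higher and 24 to 46 lower. Of the transport lists 1 gene fell by limma, but 2 with the mean of all probe sets and 3 after quantile normalization. By the size rule, a lower threshold or a single line can only add genes, and a higher threshold or a stricter filter can only remove them. The cause of the other changes was not tested. Of the values for single genes and lists under an alternative, 215 stayed within 1 SD of the 2 lines or, for counts, within 1.5 times, and 58 did not. Within those limits the apical and recycling list still went from 3 risen genes to 2 after quantile normalization and to 4 with no filter, and SNAP29 from 0.39 to 0.25 or 0.52 with 1 line left out. Much of the 215 was fixed in advance. With 1 of 2 lines left out, a gene value cannot move by more than 1 SD of the lines. A changed filter kept the same brightest probe set of each gene. The tally is therefore no measure of how robust the values are. RAB11B lay at -0.03 with the mean of all its probe sets. Probe sets near the level filter limit what the dim SNAP23 signals can show. No paired analysis was possible because there is 1 control array, so that the groups share fewer than 2 replicate numbers. limma was not run with a line left out, since no residual degree of freedom would remain.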

Other observations

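Genes beside or overlapping SNAP23 and STXBP3 in the RefSeq gene order were read after the member values were seen, each by its brightest probe set. ZNF106 and LRRC57 overlap the SNAP23 gene. ZNF106 gave 682 (control), 612 (line 1) and 615 (line 2), and LRRC57 gave 370.5, 429 and 399. HAUS2, a subunit of the augmin complex of the spindle and a neighbour on one side of SNAP23, gave 315, 510.4 and 531. It was higher by 0.69 and 0.75 on the log2 scale, the only one of these neighbours at least 1.5-fold from control in both lines. Of all genes, 1.36% were that much higher. HAUS2 has 2 probe sets, and the dimmer one was not read here. CAPN3, on the other side of SNAP23, gave 268, 263 and 267. The neighbours GANC, STARD9, FNDC7 and AKNAD1 were below the filter. Of the neighbours of STXBP3, PRPF38B gave 602, 630.3 and 580.1, and GPSM2, an organiser of spindle orientation, gave 271, 282 and 264.

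EPCAM, the epithelial adhesion molecule, was the one intestinal epithelial marker of 9 that passed limma, where 9.63% of all genes rose. EPCAM was named after its values were seen. It gave 3930.4 (control), 5602 (line 1) and 5911 (line 2), higher by 0.55 ± 0.08 on the log2 scale (SE, limma adjusted p = 0.009). Its other 2 probe sets lay at 0.55 and 0.56, unlike the probe sets of SNAP23.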
